A study of Mus musculus with 4 samples.

Results

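Foxp3 regulatory T cells (Tregs) are CD4 T cells that hold other immune cells in check, and their identity is set by the transcription factor Foxp3. Here they were chosen by their own counts in the libraries of CD45+ cells sorted from mouse brain that carried breast tumour cells. A barcode was chosen by 5 conditions. It had at least 300 detected genes and at most 15% of its unique molecular identifiers (UMIs, counted RNA molecules) from mitochondrial genes. Its summed Cd3d, Cd3e and Cd3g UMIs were at least 2, and it had at least 1 Foxp3 UMI. It had no UMI of Cd8a or Cd8b1, and its summed UMIs of the myeloid genes Csf1r, Cd68, Itgam and Adgre1 were below 5. This gave 163 Tregs, 103 in the vehicle library and 60 in the SCDi library, of 13412 CD45+ barcodes that passed the gene and mitochondrial limits and of 30856 barcodes in the whole series. These genes chose the cells, so their levels in the Tregs are a description and no result.

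Tregs depend on interleukin-2, which they bind through the high-affinity receptor chain Il2ra and do not make themselves. They restrain other cells by contact, through Ctla4 on their surface, by enzymes that turn ATP into adenosine (Entpd1 and Nt5e), and by secreted products such as Il10 and Tgfb1. In tumours, Tregs are usually of an activated type with high Ctla4, Il2ra, Icos, Tnfrsf4 and Tnfrsf18, and many of them divide. Stearoyl-CoA desaturase (SCD), the target of the inhibitor studied here, turns saturated fatty acids into monounsaturated ones. In the mouse it is encoded by Scd1, Scd2, Scd3 and Scd4.

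Female C57BL/6 mice with an intact immune system received GFP-expressing EO771 cells, a mouse mammary carcinoma line, into the brain. They were then given vehicle or an SCD inhibitor (labelled SCDi, with no compound name, dose or mouse age in the sources used here) for 14 days. The brains of 3 mice per treatment were pooled before sorting of living CD45+ GFP- immune cells and living CD45- GFP+ tumour cells, and each of the 4 pools became 1 single-cell library of the 10x 3' v3 type. Both groups carried the same tumour line and, by the labels, differed in treatment. Each treatment was 1 library of 3 pooled animals, so no test between treatments was possible. All intervals cover counting error only, and a difference between the treatments cannot be told apart from a difference between the pools or between the libraries.

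The CD45+ libraries held 7332 barcodes and 135851178 UMIs (vehicle) and 6777 barcodes and 141068797 UMIs (SCDi), of which 6959 and 6453 barcodes were kept. The Tregs had a median of 13288 UMIs (1736 to 86817) and 3783 genes in the vehicle library. In the SCDi library the medians were 19124.5 UMIs (4285 to 141120) and 4504 genes. The SCDi Tregs were thus the deeper ones, and levels are given below as CPM. This is the UMIs of a gene summed over all Tregs of a library, scaled to a common total from their 2029665 and 1726513 UMIs. The CD45+ libraries shared 14 barcode sequences, none of them a Treg in either. Of the vehicle Tregs, 1 had a barcode sequence that also occurred in the vehicle tumour library and 1 a sequence that also occurred in the SCDi tumour library.

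The defining markers of Tregs were present. Foxp3 gave 547 UMIs (269.5 CPM) in the vehicle Tregs and 394 UMIs (228.2 CPM) in the SCDi Tregs, with a median of 4 and 5 UMIs per cell. In most Tregs the call did not rest on a single molecule: 10 of 103 and 4 of 60 had exactly 1 Foxp3 UMI. Foxp3 UMIs were rare in cells that should lack it. Cells with at least 20 myeloid UMIs and no Cd3 held a Foxp3 UMI in 18 of 3173 cases (0.567%, median depth 19243 UMIs) in the vehicle library. The SCDi library gave 15 of 3642 (0.412%, median depth 20354.5 UMIs). B cells held it in 0 of 100 and 1 of 87 cells, and natural killer cells in 0 of 136 and 0 of 118, which by the exact interval allows up to 2.68% and 3.08%.

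The other defining markers did not enter the rule. They are Ctla4, a receptor that removes costimulatory ligands from antigen-presenting cells, Il2ra, and Ikzf2 (Helios), a transcription factor typical of Tregs made in the thymus. All 3 were found in 98 of 103 vehicle Tregs (95.15%) and in 53 of 60 SCDi Tregs (88.33%), and each of the 163 Tregs held at least 2 of them. The nearest class, Cd4 T cells (the T cell gate with a Cd4 UMI and no Foxp3, Cd8a or Cd8b1 UMI), held all of them in 23 of 90 and 2 of 40 cells. These Cd4 T cells had a median of 11474.5 and 7783 UMIs, and 45.6% and 20% held the proliferation genes Mki67 or Top2a. Tregs with no Foxp3 UMI counted would fall into this class, and how many did was not tested. Ratios between treatments in this class, given below, make no allowance for these differences or for such cells. Ratios of Tregs to this class make none either. After each cell was thinned to 2000 UMIs, Ikzf2 was found in 99.02% and 96.67% of Tregs, against 28.09% and 25% of Cd4 T cells. This thinning left out 1 vehicle Treg that was shallower. Cd4 itself had a UMI in 78.6% and 83.3% of the Tregs, although the rule did not ask for it.

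The myeloid limit left out more Foxp3 barcodes than it kept in the vehicle library. A further 113 vehicle and 57 SCDi barcodes met every other condition but held 5 or more myeloid UMIs. They were deep (median 42940 and 46852 UMIs), carried a median of 202 and 204 UMIs of the MHC class II genes H2-Aa, H2-Ab1, H2-Eb1 and Cd74, and held Ikzf2 in every cell. Just outside the limit, with 5 to 9 myeloid UMIs, lay 13 vehicle and 2 SCDi barcodes, and just inside it, with 3 or 4, lay 10 and 8. At the other edges, 4 and 1 barcodes were left out for a single Cd3 UMI, and 15 and 0 for a single Cd8 UMI. The automatic doublet caller marked 1 and 2 barcodes of the kept ones and so had not worked. Removing the highest doublet scores at a rate of 0.8% per 1000 barcodes took out 1 Treg in each library, but 36 of the 113 and 23 of the 57 barcodes over the limit.

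**Figure D1:**
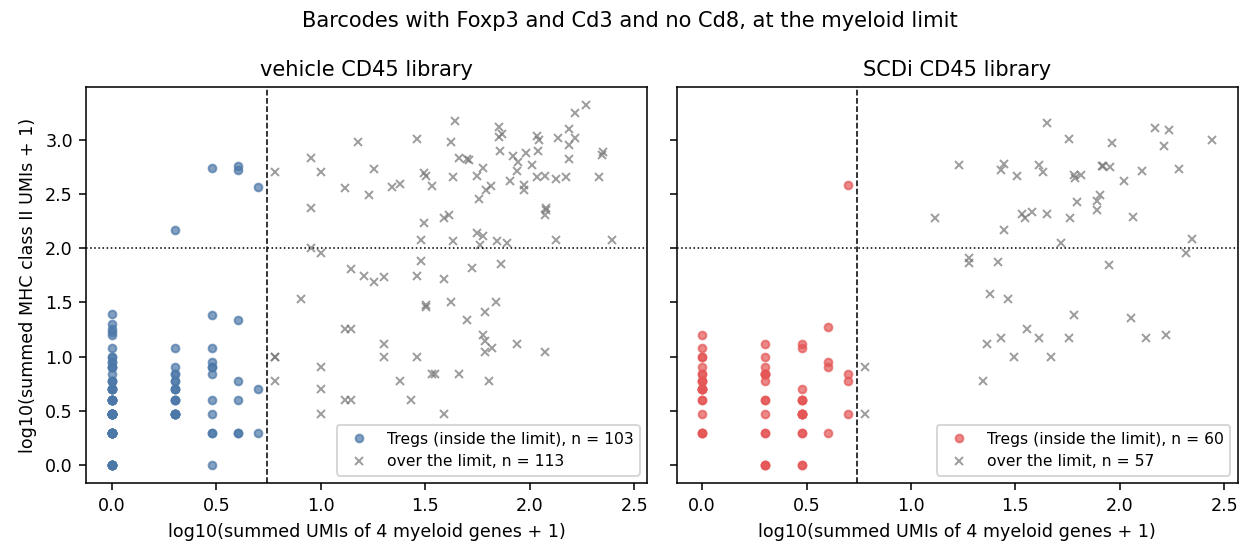
Each point is 1 kept barcode with Cd3, with Foxp3 and without Cd8 UMIs, in the vehicle library and in the SCDi library; the axes are its summed myeloid UMIs and its summed MHC class II UMIs on log scales, circles are Tregs and crosses are barcodes over the myeloid limit. The barcodes over the limit, 113 and 57, spread to high counts of both gene groups, while 5 vehicle Tregs and 1 SCDi Treg lie at 100 or more MHC class II UMIs.

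Inside the limit, 6 Tregs also carried many MHC class II UMIs, 5 in the vehicle and 1 in the SCDi library, with at least 146 and 383 MHC class II UMIs against at most 24 and 18 in the others. Sums of antigen-presenting cell markers differed more between the libraries than their medians per cell. The dendritic list holds H2-Aa, H2-Ab1, H2-Eb1 and Cd74, the genes that set this split. Its values thus partly follow from the choice of barcodes. Dendritic cell markers summed to 1713 CPM in vehicle and 748.9 CPM in SCDi Tregs, but their median per cell was 495 CPM (0 to 27974.9) and 525.5 CPM (78.96 to 7072). Of their 9 measured genes 7 were past 1.5-fold lower in SCDi, and Xcr1, a marker of cross-presenting dendritic cells, had no UMI in either library. Macrophage, monocyte and microglia markers summed to 1527 and 771.5 CPM, with medians per cell of 861.9 CPM (201.4 to 14323.4) and 758.5 CPM (313.1 to 4705), and 8 of their 15 measured genes were past 1.5-fold lower in SCDi. Of the other marker lists, B and plasma cell markers summed to 264.1 and 309.9 CPM, natural killer and innate lymphoid markers to 214.3 and 213.1 CPM, and brain parenchyma and vessel markers to 207.9 and 137.3 CPM. CD8 and gamma delta T cell markers were at 38.9 and 2.90 CPM, neutrophil and mast cell markers at 2.46 and 6.37 CPM, and malignant and epithelial markers at 9.36 and 6.95 CPM. The B cell gene Cd79a was at 1.97 CPM in vehicle and 24.3 CPM in SCDi Tregs. Of its SCDi UMIs 95% came from 1 barcode, and without the MHC class II-rich barcodes its log2 ratio of SCDi to vehicle was -0.72 in place of 3.46. Values without these 6 barcodes are given below where they change a call or differ most, and their part in the other results was not tested.

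The share of Tregs among immune cells was lower in the SCDi library, and their share among T cells differed by less than counting error at the limits used. Tregs made up 1.48% of kept CD45+ cells in the vehicle library (103 of 6959, exact Clopper-Pearson 95% interval 1.21 to 1.79) and 0.930% in the SCDi library (60 of 6453, 0.710 to 1.20). The difference was -0.55 percentage points (Newcombe interval -0.92 to -0.18). Of T cells, meaning all barcodes with at least 2 Cd3 UMIs and under 5 myeloid UMIs, Tregs were 30.75% (103 of 335, 25.85 to 35.99) and 29.13% (60 of 206, 23.02 to 35.84). That difference was -1.62 points, with an interval from -9.35 to 6.44. With no myeloid limit the shares of T cells were 31.26% (216 of 691) and 25.71% (117 of 455), a difference of -5.55 points whose interval, -10.75 to -0.17, left out 0. In the CD45+ denominator a smaller share can come from fewer Tregs or from more of the other cells, and these cannot be told apart.

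The ratio of Tregs to CD8 T cells differed beyond counting error. The vehicle library held 198.1 Tregs per 100 CD8 T cells (103 to 52), and the SCDi library 98.36 per 100 (60 to 61). The log2 ratio of SCDi to vehicle was -1.01 (interval by a normal approximation, -1.71 to -0.31). Over all gates tried, this log2 ratio lay between -1.22 and -0.88. CD8 T cells were the only T cell class counted here whose number was higher in the SCDi library, at 61 against 52 cells. Among T cells without Cd8 UMIs, Tregs were 39.31% and 42.25%, a difference of 2.94 points (-6.93 to 12.96). This difference turned to -3.62 with fewer than 2 myeloid UMIs allowed and to -4.99 with no myeloid limit.

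**Figure D2:**
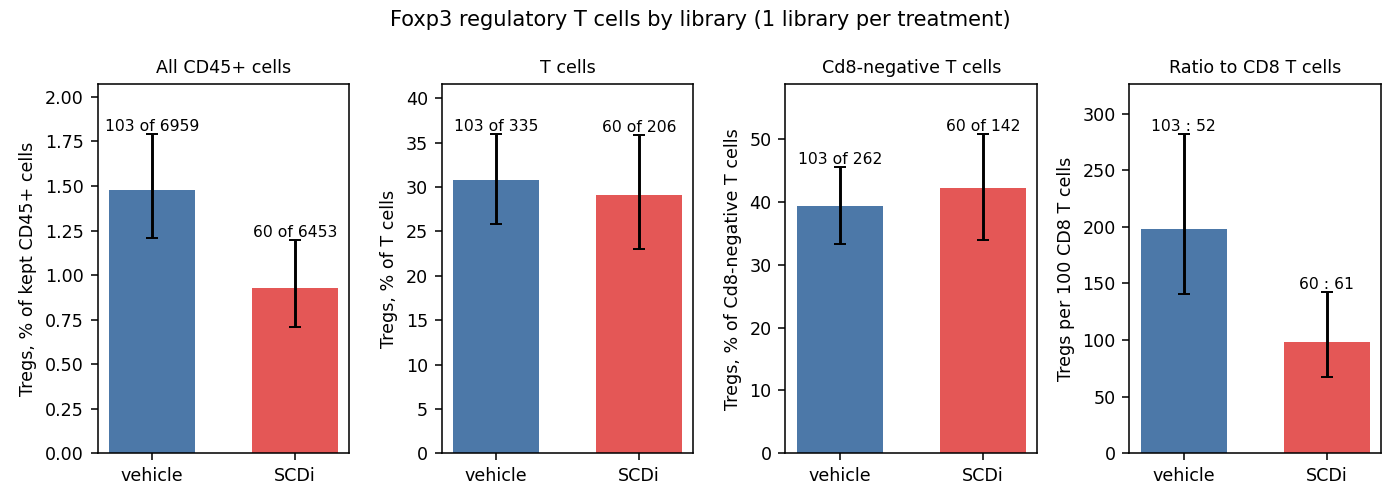
Bars give Tregs in the vehicle and the SCDi library as percent of kept CD45+ cells, of T cells and of Cd8-negative T cells, and per 100 CD8 T cells; whiskers are exact 95% intervals for counting error. The intervals of the 2 libraries are apart in the first panel, overlap narrowly in the last and overlap widely in the middle ones.

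Depth bears on these shares, since a shallow cell can lose its only Foxp3 UMI or its only Cd8 UMI. Each T cell was thinned to 2000 UMIs, with 7 shallower vehicle cells left out. The Cd3 and myeloid conditions were read before thinning. T cells with both Foxp3 and Cd8 UMIs could enter the count by losing their Cd8 UMIs. There were 21 of these in the vehicle and 3 in the SCDi library. Of the thinned T cells, 17.99% (59 of 328) in vehicle and 12.62% (26 of 206) in SCDi met the Foxp3 and Cd8 conditions. The difference was -5.37 points (-11.31 to 1.09), against 31.1% and 29.13% in the same cells unthinned. The mean expected over all possible draws was 16.73% and 12.81%. A draw at 4000 UMIs gave 29.02% and 19.39% (difference -9.63, -16.81 to -1.92), where the expectation was closer together, at 24.92% and 20.37%. A draw at 1000 UMIs gave 8.68% and 10.68%, the reverse order, where the expectation was 10.13% and 7.56%. The expected share was thus lower in the SCDi library at all 3 depths, while the unthinned shares were within counting error of each other. How much of this gap came from cells that lost their Cd8 UMIs was not tested, so it cannot be read as a difference in Tregs alone.

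Tregs were next set against the other T cells within each library, as a description of what they share beyond the rule. Of 8605 genes measured against all other T cells, 1.75% were past 2-fold higher and 2.89% past 2-fold lower in both libraries. Against Cd4 T cells, the nearest class, 7258 genes were measured, and 2.07% were past 2-fold higher and 1.89% lower in both. Of 14 measured suppressive receptors and ectoenzymes, 4 were past 2-fold higher in Tregs than in Cd4 T cells in both libraries and 1 was past 2-fold lower.

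Ctla4 was at 3082 and 2799 CPM in vehicle and SCDi Tregs and at 1138 and 817 CPM in Cd4 T cells. Il2ra was at 792 and 1146 CPM against 237 and 71.3 CPM. Lrrc32 (GARP), which docks latent TGF-beta on the Treg surface, was at 50.2 and 33 CPM against 5.79 and 4.6 CPM. Itgb8, part of the integrin that activates latent TGF-beta, was at 121 and 126 CPM against 26.1 and 39.1 CPM, and it was not detected in CD8 T cells of either library, which allows up to 3.71 and 2.48 CPM. The member past 2-fold lower was Nrp1, a receptor often used to mark thymic Tregs, at 44.8 and 35.9 CPM against 168.7 and 156.5 CPM. Il10 was the one of 11 measured mediators past 2-fold higher, and of 21 tissue effector genes Klrg1, Maf, Prdm1 and Itgae were past it higher and Cxcr6 lower. The TNF receptor family gave 3 of 13 genes higher in both libraries and 2 lower. The higher ones were the costimulatory receptors Tnfrsf4 (OX40), Tnfrsf9 (4-1BB) and Tnfrsf8 (CD30). Tnfrsf4 was at 1294 and 1723 CPM in Tregs and at 410 and 621 CPM in Cd4 T cells.

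By the rule for named genes, the strongest genes above Cd4 T cells included several without a textbook Treg role. Frmd5, a membrane-linked scaffold protein, was at 163.6 and 140.2 CPM in Tregs and at 2.9 and 6.9 CPM in Cd4 T cells. Its log2 ratio was 5.68 (4.45 to 7.70) in the vehicle and 4.26 (2.78 to 6.63) in the SCDi library, where the Cd4 T cells held 3 UMIs. It was found in 31 of 103 and 13 of 60 Tregs, as counts of cells with a UMI at unequal depth. Klrg1, a receptor of terminally differentiated T cells and of tissue effector Tregs, was at 79.8 and 71.8 CPM in Tregs. In Cd4 T cells it was at 7.24 CPM in the vehicle library and at 0 in the SCDi library, so that the Tregs were at least 10.4-fold higher there against a floor of 3 UMIs over the group. Lamc1, a laminin chain, was at 356 and 255 CPM against 72.4 and 11.5 CPM, and was found in 100 of 103 and 52 of 60 Tregs.

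Others of these 12 genes were Ikzf2, Tctex1d1, Rapsn, Pla2g12a, Snx9, Mt1, Cmtm7, Slc36a3os and Ccr2. Cmtm7, a membrane protein found in 98 and 57 Tregs, was at 535 and 625 CPM against 154 and 46 CPM in Cd4 T cells. CD8 T cells had 338 and 397 CPM of it, so that the Tregs were less than 2-fold above them. Ikzf2 was at 2928 and 2751 CPM against 475 and 403 CPM, and at 555 and 395 CPM in CD8 T cells. For Ccr2 and Mt1 even the order depended on the compared class. Ccr2, the receptor that draws monocytes and some T cells to Ccl2, was at 165 and 92.7 CPM in Tregs and 26.8 and 6.9 CPM in Cd4 T cells. CD8 T cells had 38.3 CPM in the vehicle library and 107 CPM in the SCDi library, above the Tregs of that library. Mt1, a metal-binding metallothionein, was at 152 and 78.8 CPM in Tregs and 34.8 and 6.9 CPM in Cd4 T cells. In CD8 T cells it was at 11.1 and 246 CPM, so that SCDi Tregs lay below them (log2 ratio -1.64, -1.95 to -1.35) and below all other T cells together (-0.84).

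Genes of resting T cells were low in the Tregs. Of 14 measured resting and lymphoid homing genes, none was past 2-fold higher and 8 were past 2-fold lower than in Cd4 T cells in both libraries. Tcf7, a factor of naive and memory T cells, was at 3.45 and 8.69 CPM in Tregs, in 4 cells of each library, and at 116.5 and 225.5 CPM in Cd4 T cells. Bach2, which holds back effector differentiation, was at 41.4 and 7.53 CPM against 326 and 449 CPM. Bcl2, a survival factor, was at 18.2 and 15.1 CPM against 127 and 343 CPM. Lef1, Satb1, Ccr7, S1pr1 and Dusp10 were the other 5.

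Cytokine genes of conventional T cells differed from Cd4 T cells in both directions. Of 7 measured in this comparison, 3 were past 2-fold lower in Tregs in both libraries (Xcl1, Ifng and Cd40lg) and 2 past it higher (Ccl3 and Ccl4). The ligand genes Tnfsf11 (RANKL), Tnfsf8 (CD30 ligand) and Cd40lg were among the 8 genes furthest below Cd4 T cells, with Tcf7, Ifng, Hs6st3, St8sia1 and Xcl1. Tnfsf8 gave 11.3 and 0.58 CPM in Tregs (23 UMIs and 1 UMI) and 284 and 324 CPM in Cd4 T cells. Cd40lg gave 3 and 4 UMIs in Tregs and 63.7 and 59.8 CPM in Cd4 T cells. Ifng, the main macrophage-activating cytokine of T cells, was at 9.36 and 6.37 CPM in Tregs against 370 and 122 CPM, a log2 ratio of -5.26 and -4.16. The cytokine genes Il17a, Il21, Il22, Il4, Il13 and Il5 had no UMI in the Tregs of either library, which allows up to 1.48 CPM in vehicle and 1.74 CPM in SCDi. Ccl4, a chemokine and one of the higher genes, was at 382 and 255 CPM in Tregs and 112 and 59.8 CPM in Cd4 T cells.

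**Figure D3:**
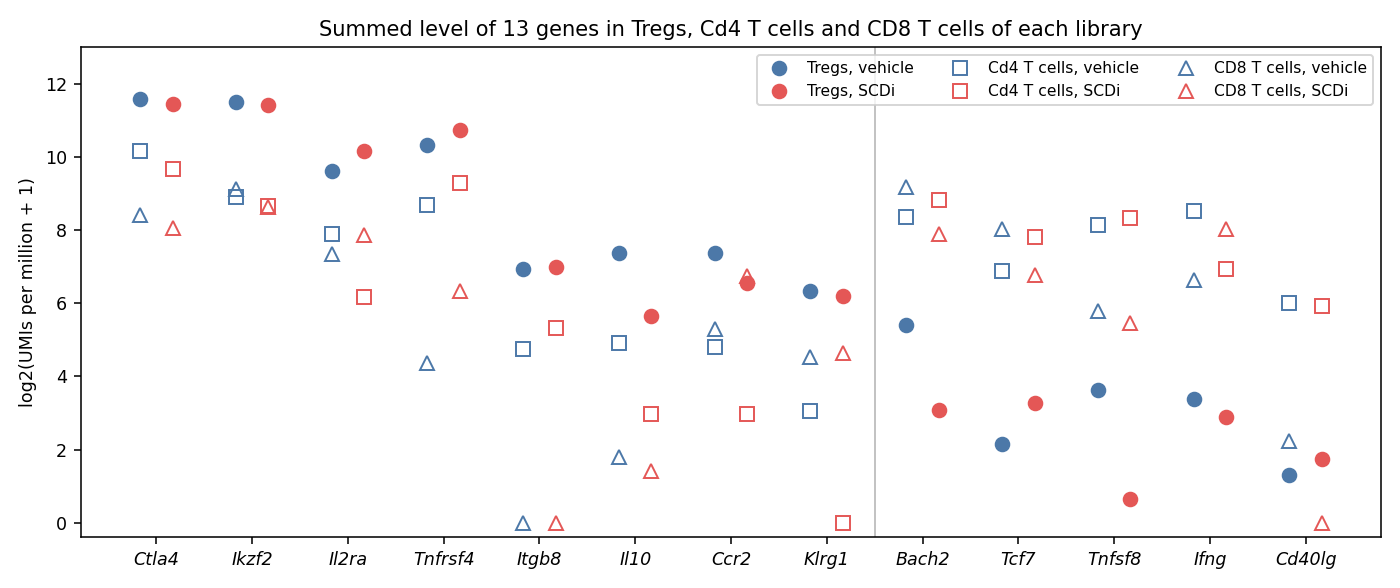
Points give the summed level of 13 genes in Tregs (filled circles), Cd4 T cells (open squares) and CD8 T cells (open triangles) of the vehicle (blue) and the SCDi library (red), as log2 of CPM plus 1. Left of the line are genes above Cd4 T cells in Tregs, such as Ctla4 and Ikzf2, and right of it genes below them, such as Tcf7, Tnfsf8 and Cd40lg.

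The Tregs were not uniform among themselves. Klrg1, which marks terminal effector cells, and Ccr8, a chemokine receptor of tumour Tregs, were both found in 12 vehicle Tregs, Klrg1 alone in 29, Ccr8 alone in 30 and neither in 32. In the SCDi library these counts were 11, 13, 13 and 23. Ccr8 had a UMI in 42 of 103 and 24 of 60 Tregs. Of 41 and 24 Tregs with Klrg1, 25 and 18 also held the proliferation genes Mki67 or Top2a. These are counts of cells with a UMI and so depend on depth: thinned to 2000 UMIs, Klrg1 was found in 8.82% of vehicle and 13.3% of SCDi Tregs, against 2.25% of vehicle and 0 of 40 SCDi Cd4 T cells. T cell receptor beta segments were seen too rarely to judge clonality, in 11 and 10 Tregs, which used 6 and 5 different segments.

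Between treatments, 8585 genes were measured in Tregs with at least 30 UMIs over both libraries. Of these, 21.5% were past 1.5-fold in either direction, 10.6% higher and 10.9% lower in SCDi, and the median log2 ratio was -0.008. With no replicate library this background says how often genes differed by that much between these pools of cells. Core identity genes were within 1.5-fold. In Tregs Ctla4 had a log2 ratio, SCDi to vehicle, of -0.14 and Ikzf2 one of -0.09. Il2ra was higher in SCDi, with a log2 ratio of 0.53 (0.44 to 0.63), but at -0.12 in Tregs without a UMI of the mitotic genes Mki67 or Top2a.

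The transcription factors of Tregs were mostly at or below the vehicle level in SCDi. Of 18 measured, 3 were higher and 15 lower, and their median log2 ratio was -0.29. None was past 1.5-fold higher and 5 were past 1.5-fold lower, against 10.6% and 10.9% of all measured genes. The median of the same list was -0.05 in Cd4 T cells and -0.32 in CD8 T cells. The 5 were Bach2, Foxo3, Smad3, Nr4a3 and Runx1. Bach2 had the lowest ratio, -2.42 (-3.43 to -1.61), and was found in 22 vehicle Tregs and in 6 SCDi Tregs, 1 of which held 62% of its UMIs. With no myeloid limit it was -0.66. Runx1, a partner of Foxp3, was at 380 CPM in vehicle and 253 CPM in SCDi, and the order turned in Tregs without Mki67 or Top2a, where its log2 ratio was 0.22. Smad3 turned in the same way, to 0.58.

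Suppressive receptors and ectoenzymes were mostly lower too. Of 14 measured, 3 were higher and 11 lower, none was past 1.5-fold higher and 6 were past it lower, against a background of 10.9%. The median of the list was -0.34 in Tregs, -0.39 in Cd4 T cells and 0.14 in CD8 T cells. Izumo1r (folate receptor 4), a surface marker of mouse Tregs, differed most. It was at 251 CPM in vehicle (510 UMIs, a median of 3 per Treg) and at 55 CPM in SCDi (95 UMIs, a median of 1), a log2 ratio of -2.19 (-2.52 to -1.87). It was found in 87 of 103 and 39 of 60 Tregs, and after thinning to 2000 UMIs in 38.2% (28.8 to 48.4) and 13.3% (5.94 to 24.6). Over the 19 settings computed, the ratio lay between -2.56 and -1.12. In Cd4 T cells Izumo1r was at 76.7 and 50.6 CPM, a log2 ratio of -0.59.

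The receptors Nt5e, Lag3 and Tigit were lower in SCDi by more than 1.5-fold with and without the MHC class II-rich barcodes. Nt5e (CD73), which makes adenosine from AMP, was at 144 and 55 CPM and in 59 and 23 Tregs, a log2 ratio of -1.38 (-1.74 to -1.05), with 33% of the SCDi UMIs in 1 cell. Lag3, an inhibitory receptor for MHC class II, was at 138 and 56.8 CPM (-1.28, -1.63 to -0.94). Tigit, an inhibitory receptor that binds CD155, was at 93.6 and 45.8 CPM (-1.03, -1.43 to -0.65). In Tregs without Mki67 or Top2a these ratios were -0.02 for Nt5e, -0.41 for Lag3 and -0.48 for Tigit, and in Tregs with either gene they were -2.19, -1.51 and -1.09. With no myeloid limit they were -1.45 for Nt5e, -0.96 for Lag3 and -0.40 for Tigit, the last within 1.5-fold. Cd83 (-1.26) and Lrrc32 (-0.60) completed the 6, but Cd83 was at -0.47 without the MHC class II-rich barcodes and Lrrc32 at -0.16 without Mki67 or Top2a cells. Entpd1 (CD39), the ATP-splitting partner of Nt5e, was at 128.1 and 101.4 CPM, within 1.5-fold.

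Secreted and cytotoxic mediators split. Of 11 measured, 6 were higher and 5 lower, with a median of 0.08. Past 1.5-fold, 1 was higher and 4 lower, against 10.6% and 10.9% of all measured genes. Il10, the suppressive cytokine, was at 165 CPM in vehicle (59 of 103 Tregs) and 49.2 CPM in SCDi (20 of 60 Tregs), a log2 ratio of -1.74 (-2.10 to -1.39). One SCDi cell held 31% of the SCDi UMIs, and the ratio lay between -2.64 and -1.46 over the 19 settings. In Cd4 T cells Il10 was at lower levels and also lower in SCDi, at 28.9 and 6.9 CPM, the latter at the floor of 3 UMIs. Fgl2, a secreted suppressor of dendritic cells, was at 119 and 35.9 CPM (-1.72, -2.16 to -1.32), but with no myeloid limit at 0.12. Lgals3 was at 199 and 48.6 CPM, and its log2 ratio of -2.03 became -1.18 without the MHC class II-rich barcodes. Prf1, the pore protein of killer cells, was at 63.1 and 34.8 CPM (-0.85, and -1.34 without those barcodes).

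The other mediators did not follow Il10. Tgfb1 was at 172 and 204 CPM, and Areg, a growth factor for tissue repair, at 99.5 and 105 CPM. Gzmb, a granule protease that Tregs can use to kill, was at 1201 and 1380 CPM in Tregs, a log2 ratio of 0.20 (0.12 to 0.28). In the other T cells Gzmb differed by far more, at 997 and 55.2 CPM in Cd4 T cells and 956 and 3806 CPM in CD8 T cells. Penk, an opioid precursor reported in tissue Tregs, was the one past 1.5-fold higher, at 36 and 114 CPM (1.65, 1.26 to 2.07), from only 11 and 10 cells. In Cd4 T cells it differed by more, at 6.51 and 175 CPM (4.63, 3.75 to 5.93).

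Of 11 measured genes of the TNF receptor family and costimulation, none was past 1.5-fold higher and 2 were past it lower. Over all measured genes 10.6% were past it higher and 10.9% lower. Tnfrsf18 (GITR) was at 753 and 795 CPM, Tnfrsf9 at 891 and 966 CPM and Icos at 1017 and 964.4 CPM. The highest ratios were those of Tnfrsf4 (0.41) and Tnfrsf8 (0.36), and both depended on the cells taken. With no myeloid limit they were 0.62 and 0.69, and without Mki67 or Top2a cells -0.21 and -0.68. Cd27, a receptor of less differentiated T cells, was at 285 and 133 CPM (-1.09, -1.32 to -0.87), in 98 and 52 Tregs, and at -0.39 without Mki67 or Top2a cells. Tnfrsf1b (TNF receptor 2) was at 283 and 158 CPM (-0.84, -1.06 to -0.63), and at -0.30 with no myeloid limit.

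**Figure D4:**
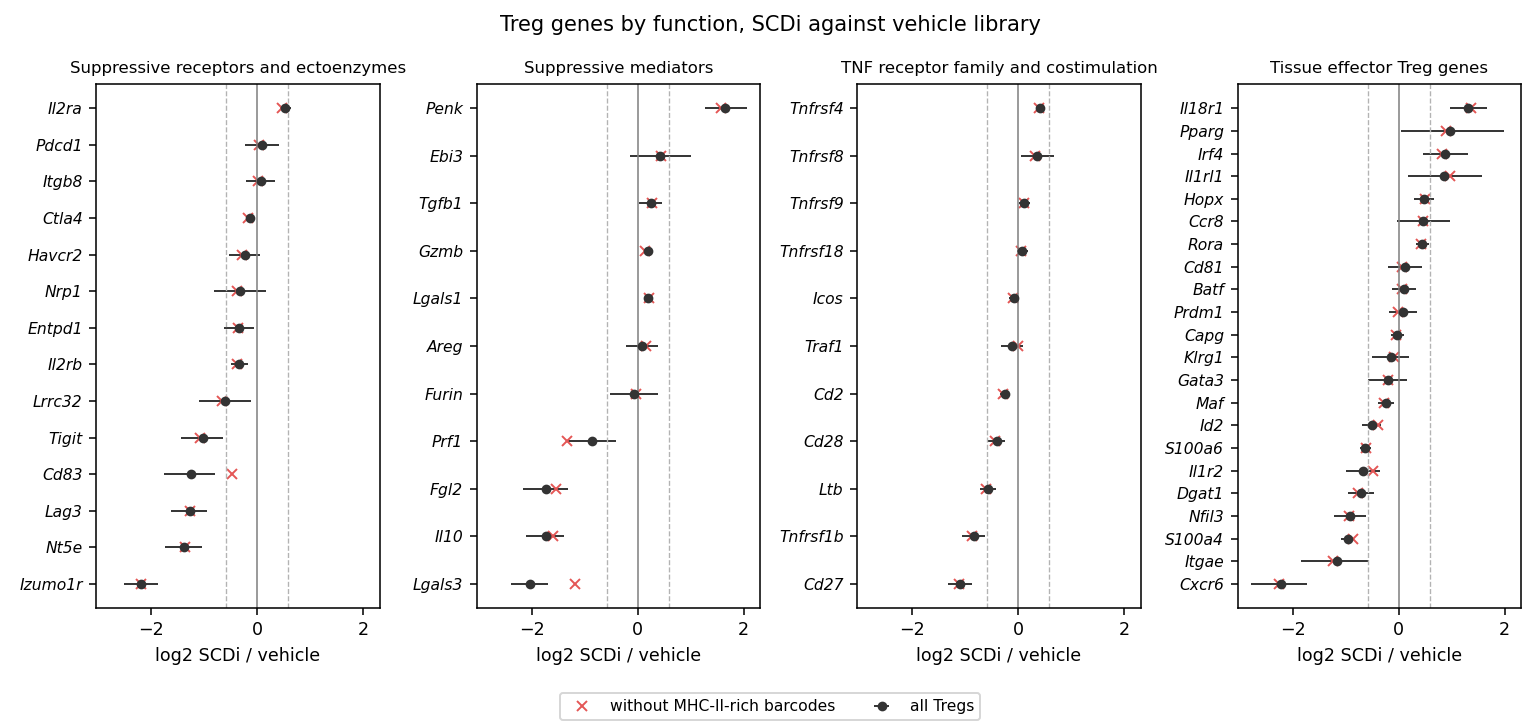
Points give the log2 ratio of SCDi over vehicle CPM in Tregs for the measured genes of 4 functional lists, with 95% counting intervals; crosses give the ratio without the 6 MHC class II-rich barcodes and dashed lines mark 1.5-fold. Izumo1r, Il10 and Cxcr6 lie far below 0 and Penk and Il18r1 above it, and the crosses of Cd83 and Lgals3 move towards 0.

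Genes of tissue effector Tregs differed in both directions. Of 22 measured, 4 were past 1.5-fold higher and 7 past it lower, against 10.6% and 10.9% of all measured genes. The list median was -0.09. Il18r1, the receptor for interleukin-18, was at 50.8 CPM in vehicle (27 of 103 Tregs) and 126 CPM in SCDi (30 of 60), a log2 ratio of 1.30 (0.96 to 1.66) and between 1.11 and 1.85 over the settings. Irf4, a factor of effector Treg differentiation, was at 38.4 and 70.7 CPM (0.87, 0.46 to 1.31), in 38 and 41 cells. Its ratio was higher still in the other T cells, at 1.60 in Cd4 and 2.01 in CD8 T cells. Il1rl1 (ST2), the receptor for interleukin-33, and Pparg, a factor of fat tissue Tregs, were the other two, at 0.85 and 0.96. They came from 8 and 10 and from 6 and 9 cells, and Pparg was at -0.01 with no myeloid limit.

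Cxcr6, a receptor that holds T cells in tissue by binding Cxcl16, had the largest difference in this list. It was at 98.5 CPM in vehicle (43 of 103 Tregs) and 20.9 CPM in SCDi (12 of 60), a log2 ratio of -2.23 (-2.79 to -1.72), with a range from -3.82 to -1.12 over the settings. Cd4 T cells had nearly the same ratio, -2.12, at 232 and 52.9 CPM, and CD8 T cells had a ratio of 0.003, at 93.97 and 94.19 CPM. Itgae (CD103), an integrin of tissue-resident T cells, was at 39.4 and 17.4 CPM (-1.17, -1.84 to -0.56), and at -0.32 without Mki67 or Top2a cells. S100a4, Nfil3, Dgat1, Il1r2 and S100a6 were the other 5 past 1.5-fold lower, with log2 ratios from -0.96 to -0.63. Without Mki67 or Top2a cells none of them was past it lower, and Il1r2 was past it higher, at 1.70. Klrg1 (-0.15) and Ccr8 (0.46) were within 1.5-fold, but Ccr8 was at 1.08 in Tregs with Mki67 or Top2a and at -0.60 in those without.

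Receptors that guide migration were mostly lower. Of 18 measured chemokine receptors and integrins, 4 were higher and 14 lower, 2 were past 1.5-fold higher and 9 past it lower. Over all measured genes 10.6% were past it higher and 10.9% lower. The list median was -0.61, against -0.15 in Cd4 and -0.18 in CD8 T cells. The lowest were Ccr1 (-2.34) and Cxcr6, and the highest Ccr6 (2.34, 2 and 9 cells) and Ccr4 (0.72, -0.06 to 1.55). In Tregs without Mki67 or Top2a the median of the list was -0.09, and it was -0.15 with no myeloid limit. Of 13 measured resting and lymphoid homing genes, 1 was past 1.5-fold higher and 4 past it lower. Klf2, which drives S1pr1, was at 105 and 52.1 CPM (-1.01), while Ccr7 was at 51.7 and 86.9 CPM (0.74). Both turned in Tregs without Mki67 or Top2a, to 0.51 and -1.14.

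Genes of DNA replication were higher in SCDi Tregs throughout. All 25 measured S phase genes were higher, 18 of them past 1.5-fold against a background of 10.6%, and the median log2 ratio was 0.73. Hells, a chromatin remodeller of replicating cells, was at 60.6 and 160 CPM (1.40, 1.09 to 1.72), in 34 of 103 and 36 of 60 Tregs. Ung, which removes uracil from DNA, had a ratio of 1.44 (0.62 to 2.38), and the lowest were Mcm6 at 0.29 and Fen1 at 0.31. Per cell, the summed S phase genes had a median of 609.4 CPM in vehicle and 1975 CPM in SCDi Tregs, with the upper quartile at 1873 and 3632 CPM. CD8 T cells had a median list ratio of 0.70 and Cd4 T cells of -0.98. Hist1h2ap, a replication-dependent histone gene, had the highest lower bound of all genes eligible to be named, at 22.2 and 106.6 CPM (2.25, 1.79 to 2.77), in 20 and 19 cells.

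Mitotic genes differed less by the list's median ratio. Of 28 measured G2 and mitosis genes, 18 were higher and 10 lower, 2 were past 1.5-fold higher (Ckap2 and Bub1) and 1 past it lower (Kif20a), with a median of 0.09. Per cell, their summed level had a median of 434.2 CPM in vehicle and 945.2 CPM in SCDi Tregs, with the upper quartile at 2281 and 3742 CPM. A UMI of Mki67 or Top2a was found in 56 of 103 (54.4%) and 37 of 60 (61.7%) Tregs. Thinned to 2000 UMIs the shares were 31.4% (22.6 to 41.3) and 38.3% (26.1 to 51.8), which overlap. In Cd4 T cells they were 25.8% and 10%, and in CD8 T cells 11.8% and 18.0%. Cells with both genes were 34 of 103 and 32 of 60. The S phase median was 0.56 among Tregs with Mki67 or Top2a and -0.03 among those without. The former cells were also deeper in the SCDi library, with a median of 33529 against 22787.5 UMIs, while Tregs without either gene were at 10628 and 10993 UMIs.

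**Figure D5:**
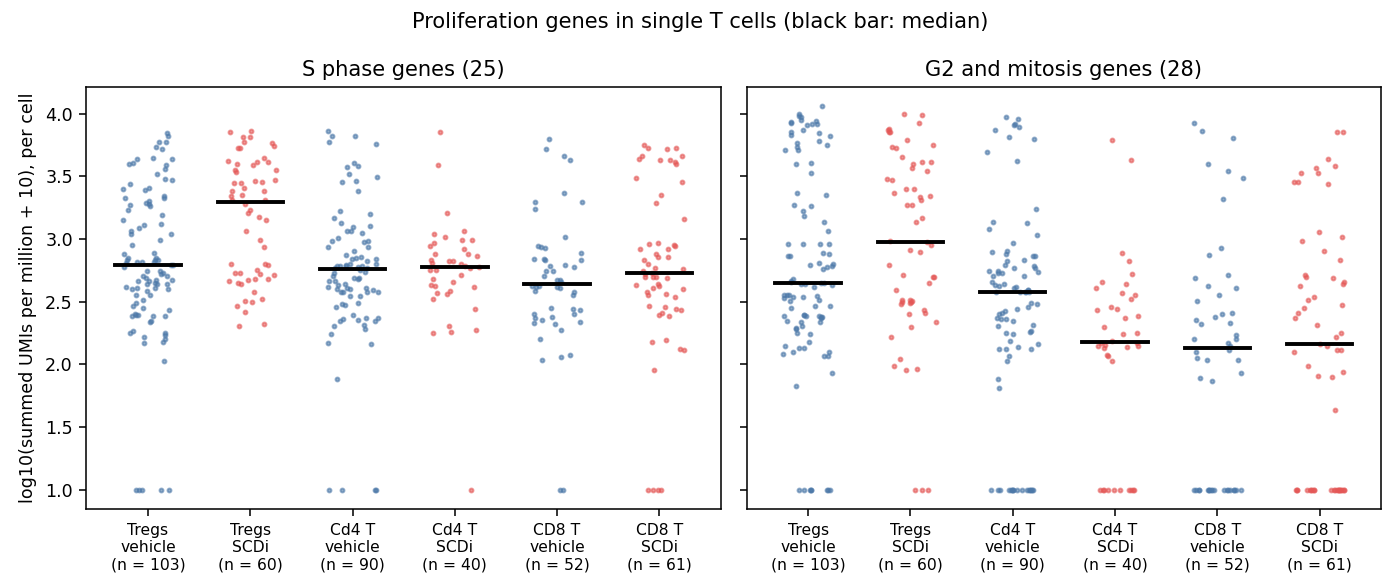
Each point is 1 cell; the vertical axis is log10 of the summed CPM plus 10 of the S phase genes and of the G2 and mitosis genes, by T cell class and library, and black bars are medians. The median of the S phase genes is 609.4 CPM in vehicle and 1975 CPM in SCDi Tregs, while the medians of Cd4 T cells, 566.3 and 592.8 CPM, lie close together.

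The 12 genes highest by the lower bound of their interval were not only genes of replication. Ncl, a nucleolar protein of ribosome production, was at 445 and 1073 CPM (1.27), of which 29% in SCDi came from 1 barcode. Nop56, which guides ribosomal RNA modification, was at 70.45 and 181.3 CPM (1.36). Without Mki67 or Top2a cells the ratio of Ncl was -0.03 and that of Nop56 1.31. The others of the 12 included Yae1d1, Kcnq1ot1, Idi1, Polq, Polr2l, Penk, Hells and Hist1h2ap, and 2 of the 12 rested on 1 barcode. These were Mef2c, with 88.2% of its SCDi UMIs in 1 barcode and a ratio of 2.06 that was 0.15 without MHC class II-rich barcodes, and Aff3, at 1.52 and at -0.30 without the deepest Treg of each library.

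Mitochondrially encoded genes were higher in SCDi Tregs. Of 13, 12 were higher and 6 past 1.5-fold higher, against 10.6% of all measured genes. The list median was 0.49 and lay between 0.26 and 0.53 over the settings. The largest ratios were those of mt-Nd4l (1.21) and mt-Nd3 (1.00, 0.83 to 1.18), subunits of complex I, and the smallest those of mt-Co1 (-0.07) and mt-Co3 (0.18). The medians in Cd4 and CD8 T cells were 0.13 and 0.12. The share of mitochondrial UMIs per Treg was 2.21% in vehicle and 2.47% in SCDi by the median.

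Of the desaturase genes, Scd2 alone was measured in Tregs. Scd1, the isoform of liver and fat, had a UMI in 1 vehicle and 3 SCDi Tregs, and Scd3 and Scd4 had none in either library. Scd2, the isoform found in most other tissues, was at 34.5 CPM in vehicle (37 of 103 Tregs) and 59.7 CPM in SCDi (34 of 60), a log2 ratio of 0.79 (0.34 to 1.25). The ratio was 0.01 in Tregs without Mki67 or Top2a. In CD8 T cells it was 1.16 and in Cd4 T cells -0.05.

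Genes that make lipids were mostly higher. Genes of fatty acid uptake, storage and oxidation, counted as 1 list, were mostly lower, and many intervals in these lists held 0. Of 17 measured fatty acid synthesis and elongation genes, 11 were higher, 4 of them with intervals above 0, and the median was 0.41. Past 1.5-fold, 5 were higher and none lower, against 10.6% and 10.9% of all measured genes. The highest were Acss2 (1.01), which makes acetyl-CoA from acetate, and Scd2, and the lowest Srebf1 (-0.54) and Acly (-0.14). Of 19 measured cholesterol synthesis genes, 15 were higher, 6 past 1.5-fold and 6 with intervals above 0, also with a median of 0.41. Idi1, an early enzyme of that route, was at 10.8 and 37.6 CPM (1.77, 1.08 to 2.56), and Sqle, its first oxygen-dependent step, had a ratio of 1.30. In Tregs without Mki67 or Top2a the cholesterol median was -0.13 and the ratios of Idi1 and Sqle were -1.01 and -2.43, from few UMIs. CD8 T cells had a cholesterol median of 0.51 and Cd4 T cells of 0.02.

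Among 17 measured genes of fatty acid uptake, storage and oxidation, 1 was past 1.5-fold higher and 5 past it lower, with a median of -0.26. Intervals lay above 0 for 2 of the 17 and below it for 3. Over all measured genes 10.6% were past 1.5-fold higher and 10.9% lower. Hilpda, an inhibitor of lipid droplet breakdown, was at 60.6 and 32.4 CPM (-0.90, -1.38 to -0.43), and at -0.34 without Mki67 or Top2a cells. Dgat1, which makes triglyceride, was at 203 and 124 CPM (-0.71), and at 0.26 without Mki67 or Top2a cells. Of the 9 measured LXR targets, none was past 1.5-fold higher and 3 were past it lower.

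Stress gene lists had medians within 1.5-fold, while some of their members were past it. Of 20 measured genes of the unfolded protein response, 16 were higher but 2 past 1.5-fold, Creld2 (0.69) and Sdf2l1 (0.67). The sensors Atf6 (-0.67, and -0.24 without Mki67 or Top2a cells) and Ern1 (-0.63) were past it lower, and the median of 0.31 was -0.04 without Mki67 or Top2a cells. ATF4 targets had a median of 0.29, hypoxia and glycolysis genes of 0.16, and immediate early genes, which also report cell dissociation, of -0.10. Past 1.5-fold higher and lower were 2 and 1 of 16 ATF4 targets and 4 and 1 of 24 hypoxia and glycolysis genes. Of 17 immediate early genes 2 were past it higher and 5 lower. Over all measured genes 10.6% were past it higher and 10.9% lower. Of 19 measured apoptosis regulators, 1 was past 1.5-fold higher and 3 past it lower. Bcl2l11 (BIM), which triggers death of lymphocytes deprived of cytokine, was lowest, at 66.5 CPM (42 of 103 Tregs) and 13.3 CPM (15 of 60). Its log2 ratio was -2.30 (-3.03 to -1.68), and -0.84 with no myeloid limit. In Cd4 T cells it was at 81.8 and 94.3 CPM.

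Interferon-stimulated genes were lower in SCDi Tregs but this depended on the gate. Of 30 measured type I interferon genes, 4 were higher and 26 lower, 11 of them past 1.5-fold against the background of 10.9%, and the median was -0.35. Ifit3 was at 76.4 and 28.4 CPM (-1.42) and Ifit1 at 97.1 and 40 CPM (-1.27), both antiviral proteins, while Oas1a (0.20) and Slfn8 (0.10) were slightly higher. The list median was -0.23 without MHC class II-rich barcodes, 0.09 in Tregs without Mki67 or Top2a, and 0.34 with no myeloid limit, where Ifit3 and Ifit1 stood at 0.96 and 0.91. Cd4 T cells had a median of 0.87. Of 22 interferon gamma genes 4 were past 1.5-fold lower and none higher, and of 18 MHC class I genes none was past it in either direction. Cytotoxic genes other than Gzmb were lower, 6 of the 8 measured past 1.5-fold, with Klrk1 (-3.05) and Gzma (-1.87) lowest. Both came from few cells, and Klrk1 was at -0.15 without the MHC class II-rich barcodes.

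Several of the 12 genes furthest below in SCDi Tregs belonged to antigen-presenting or myeloid cells. They were Ifitm1, Cxcl2, Slc8a1, Cxcl9, Wfdc17, Atf3, Rab28, H2-Ab1, Il1b, Izumo1r, Srgap3 and Rin2. Without the MHC class II-rich barcodes the ratio of the chemokine Cxcl9 was -0.67 in place of -3.30, and that of the cytokine Il1b -0.48 in place of -2.63. Wfdc17 was at -1.32 in place of -3.18 and H2-Ab1 at -1.12 in place of -2.27. H2-Ab1 is one of the genes that chose these barcodes, so its shift partly follows from the choice. With no myeloid limit Slc8a1 was at -0.02, Atf3 at -0.14 and Rin2 at -0.18, and 79% of the vehicle UMIs of Rab28 came from 1 barcode. Ifitm1, an interferon-induced membrane protein, gave 852 and 11 UMIs, from 17 and 11 cells (-5.98, and -2.87 without those barcodes). Izumo1r was at -1.47 and Srgap3 at -1.28 with no myeloid limit, smaller than the reported ratios but still past 1.5-fold. Srgap3, a GTPase-activating protein that shapes the cell membrane, was at 121.7 and 26.06 CPM, in 42 and 13 Tregs, with ratios from -2.86 to -1.28 over the settings.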

How the data were processed

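Single-cell 3' libraries were made by the submitters from sorted pools of 3 mice, 1 library per treatment and population. Per the submitters' processing notes they were counted with Cell Ranger 7.1.0 on mm10. The deposited values are raw UMI counts per gene and barcode for 32285 genes, filtered to cell barcodes by the authors with a lowest depth of 500 UMIs. From these counts, barcodes were gated by the rule given in the text, UMIs were summed over the cells of a class, and CPM of the summed UMIs was compared. The members and the gene lists were chosen with earlier results of these data known. Ratios are log2 of CPM with 0.5 UMIs added, with exact conditional binomial 95% intervals, and shares have exact Clopper-Pearson intervals, the level being 95. Counting used UMIs, yet intervals and floors (3 UMIs) cover counting error only. Genes were measured at 30 or more UMIs over both groups compared. Named genes were the 12 with the highest lower bound and the 12 with the lowest upper bound of the ratio among genes found in at least 5 Tregs of each library, without mitochondrial, ribosomal, predicted and receptor segment genes. For Tregs against Cd4 T cells, 12 above and 8 below were taken by the weaker library. The measured genes of 6 Treg lists and the 2 highest and 2 lowest genes of the other lists described could also be named. Not all of them are. Some lists, such as the ATF4, hypoxia, immediate early, LXR and interferon gamma lists, are given by counts or medians only. A measured gene of the resting list is not reported here. A few genes of the Cd4 comparison and of the cytokine list were added after their values were seen. No test was run, since each group was 1 library. Scripts were tested on simulated data. Doublets were scored with Scrublet in scanpy 1.11.5. Python 3.11.15, numpy 2.4.6, scipy 1.17.1 and pandas 2.3.3 were used. Alternatives changed the gates, the scaling, the added UMIs and the gene minimum. Removing MHC class II-rich barcodes, lifting the myeloid limit and taking only Mki67 or Top2a cells were chosen after seeing the data.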

Additional observations from a re-analysis of the deposited data

Results flagged for a closer look

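For 3 of the named genes the SCDi over vehicle ratio had opposite signs in Tregs and in another T cell class. This difference was not tested, since each group was 1 library. The log2 ratio of Aff3 was 1.52 in Tregs and -1.92 in CD8 T cells. However, 73% of its SCDi Treg UMIs lay in 1 barcode, and without the deepest Treg of each library it was -0.30 in Tregs. That of Hells was 1.40 in Tregs and -1.21 in Cd4 T cells. That of Ifitm1 was -5.98 in Tregs and 2.43 in CD8 T cells, but 0.18 in Tregs with myeloid UMIs below 2. The tumour libraries, which no comparison of Tregs used, held 22 (vehicle) and 14 (SCDi) Foxp3 UMIs in their kept barcodes, more than the 3 counts that a count of 0 allows. These were 0.295% and 0.157% of the barcodes, at median depths of 41933 and 36940 UMIs. The shares lay below the 0.567% and 0.412% found in the cells with many myeloid UMIs and no Cd3, at 19243 and 20354.5 UMIs. Those cells came from the CD45+ libraries, so they do not measure the background of the tumour libraries. Whether the UMIs reflect Foxp3 expression was not tested.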

How the results depend on the processing

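Values below are log2 ratios of SCDi over vehicle in Tregs where no other quantity is named. Of the gene ratios recomputed over all settings, 2478 stayed within the counting interval of the reported value, 322 left it and 42 that were past 1.5-fold changed sign. Of the list medians 514 stayed close to the reported value, 35 moved further and 2 changed sign. The Treg share of kept CD45+ cells differed by -1.29 points with no myeloid limit. The thinned Treg share of T cells differed by 2.00 points at 1000 UMIs. Genes past 1.5-fold were 11.2% of those measured with no myeloid limit, of which 482 were higher and 765 lower against 912 and 936, and Tregs compared with CD8 T cells gave 7.29% of genes past 2-fold in both libraries. With myeloid UMIs below 2, Mef2c was at -1.18, Ifitm1 at 0.18, Scd1 at -1.34, Ccr7 at -0.31, Sqle at -0.10, Cd79a at -2.03 and Klrk1 at 0.72. Without the highest doublet scores, Mef2c was at -0.94, Cd79a at -0.64 and Cd79b at -0.28. With no myeloid limit, Mef2c was at -0.31, Scd1 at -1.15, Fgl2 at 0.12, Pparg at -0.0133, Il1r2 at 0.0169, S100a6 at 0.10, S1pr1 at 0.32, Cd79b at -0.0856, Kif20a at 0.14, Ifit3 at 0.96, Ifit1 at 0.91 and Fscn1 at 0.0564. Without MHC class II-rich barcodes, Cd79a was at -0.72 and Cd79b at -0.37. Without Mki67 or Top2a cells, Ncl was at -0.0349, Idi1 at -1.01, Cxcl9 at 0.33, Rab28 at 0.60, Scd1 at -1.30, Runx1 at 0.22, Smad3 at 0.58, Il1r2 at 1.70, Dgat1 at 0.26, S100a6 at 0.0424, Ccr7 at -1.14, Klf2 at 0.51, Ckap2 at -1.30, Sqle at -2.43, Creld2 at -1.04, Sdf2l1 at -2.72, Cd79a at -1.98, the S phase median at -0.0263 and the dendritic median at 0.22. Without the deepest Treg of each library, Aff3 was at -0.30. Over CD8 T cells in the SCDi library, Hs6st3 was at 3.49 and Cd40lg at 2.96 in Tregs. Rare genes rest on few UMIs, and the cause of these moves was not tested. No paired analysis was possible because each treatment was 1 library and no test was run.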
